A study of Mus musculus with 18 samples.

Results

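The chemokine receptor gene Cxcr2 and the genes of its ligands Cxcl1, Cxcl2, Cxcl3, Cxcl5 and Ppbp were followed across 18 mouse tumour libraries. These 6 genes were chosen by name from a table of 55291 genes. All 6 were among the 16816 genes tested, each having at least 1 TPM (a transcript level scaled for gene length and to a total of 1000000 in every library) in at least 3 libraries. The tumours were grown under the skin from CT26, CT26-NY-ESO-1 (CT26NYESO1 below) or LL/2 (LL2 below) cells, put into BALB/cJ or C57BL/6J mice. Which cells went into which strain is not given in the labels, so tumour type and host strain cannot be told apart. CT26 is a mouse colon carcinoma of BALB/c origin, CT26-NY-ESO-1 takes its name from a human cancer-testis antigen, and LL/2 is Lewis lung carcinoma, of C57BL/6 origin. For each tumour type 3 libraries came from tumours given OK-432 for 24 hours (OK432) and 3 from tumours without it (Ctrl), all collected on day 14. OK-432 is a penicillin-treated, freeze-dried preparation of Streptococcus pyogenes. The labels state neither what was put into control tumours nor whether replicate libraries are from different mice. P-values therefore rest on variation between libraries that could be technical. Read depth is not known from TPM.

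Cxcr2 is a receptor on mouse neutrophils that draws them from bone marrow and blood into inflamed tissue. Its ligands are small secreted proteins with the Glu-Leu-Arg motif before the CXC cysteines. Cxcl1, Cxcl2 and Cxcl3 are closely related and are made by macrophages, stromal cells, tumour cells and neutrophils themselves after stimulation through NF-kappaB. Cxcl5 is typically made by epithelial and stromal cells, and Ppbp, whose product is processed to the ligand Cxcl7, by megakaryocytes and platelets. In tumours this axis is known for recruiting neutrophils and the suppressive myeloid cells that resemble them.

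The ligand genes sit side by side. On the mm10 build (GENCODE M21) the 5 ligand genes, with Pf4 and Cxcl15, lie on the plus strand of chromosome 5 within 147 kb, from 90759360 to 90905938, in the order Cxcl5, Ppbp, Pf4, Cxcl3, Cxcl15, Cxcl1 and Cxcl2. Cxcr2 lies on chromosome 1 from 74153989 to 74161246. Transcripts of Cxcl2 and Cxcl3 share sequence: 5.84% of the 50-base words in Cxcl2 transcripts also occur in Cxcl3, and 3.51% of those in Cxcl3 occur in Cxcl2. Reads from these stretches could have been assigned to either gene. No other pair of the 6 genes shared a 50-base word.

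Promoter sequences were read to set the closely related Cxcl1, Cxcl2 and Cxcl3 beside Ppbp and Cxcr2. The RefSeq table (build GRCm38.p6, the assembly called mm10) held a promoter for 5 of the 6 genes. Shown are the 130 bases before the transcription start, 5′ to 3′, with capitals marking matches on either strand to the NF-kappaB consensus or to the motif ATAAAAG, which was chosen after the sequences were read.
Cxcl1, chr5:90891115-90891244, plus strand: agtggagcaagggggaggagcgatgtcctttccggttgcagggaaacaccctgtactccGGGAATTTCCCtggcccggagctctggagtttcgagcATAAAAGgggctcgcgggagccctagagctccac
Cxcl2, chr5:90903769-90903898, plus strand: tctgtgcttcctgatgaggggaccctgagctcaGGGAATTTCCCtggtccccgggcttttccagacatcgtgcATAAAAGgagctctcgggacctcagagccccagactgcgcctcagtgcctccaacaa
Cxcl3, chr5:90785971-90786100, plus strand: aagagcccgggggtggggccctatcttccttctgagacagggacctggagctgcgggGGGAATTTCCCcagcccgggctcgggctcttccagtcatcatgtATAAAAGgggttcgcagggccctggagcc
Ppbp, chr5:90768388-90768517, plus strand: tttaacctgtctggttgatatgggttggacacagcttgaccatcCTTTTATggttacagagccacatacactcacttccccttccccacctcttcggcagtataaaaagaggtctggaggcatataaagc
Cxcr2, chr1:74153864-74153993, plus strand: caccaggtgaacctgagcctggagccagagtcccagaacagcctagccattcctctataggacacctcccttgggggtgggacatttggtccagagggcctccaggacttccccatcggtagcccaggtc
Cxcl1, Cxcl2 and Cxcl3 each carry GGGAATTTCC, beginning 71, 97 and 73 bases before the start. The decamer lies within an 11-base run that matches the NF-kappaB consensus on both strands with the matches overlapping. Over windows from 250 bases before to 50 after the start, searched on both strands, the consensus occurs in 8.46% of 32851 RefSeq promoters and GGGAATTTCC in 29 of them, or 0.0883%. The decamer was itself read from the Cxcl1 promoter, so its presence there was fixed in advance, and the 29 include these 3 genes. The share is therefore no test of how rare the sharing is. All 3 promoters also have ATAAAAG downstream of the decamer, a motif found on either strand in 5.42% of promoters. Ppbp has it too, on the minus strand. As the motif was chosen after these sequences were read, its share is no test either. Ppbp and Cxcr2 have no match to the NF-kappaB consensus in this window, which says only that these letters are not there.

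One library stood apart. CT26NYESO1 OK432 replicate 2 had 47.2 TPM summed over the 5 ligands, against 435 and 313 TPM in OK432 replicates 1 and 3. Its S100a9, a neutrophil marker gene, stood at 42.9 TPM, against 452 and 320 TPM in the other OK432 replicates and 1.72 to 1.95 TPM in CT26NYESO1 controls. Calls on the 6 genes, and on the gene lists described after them, are given with and without it where they differ. The lists were refitted without it after the data had been seen. The 7 epithelial markers summed to 375 to 569 TPM in LL2 controls, 12.4 to 18.2 TPM in CT26NYESO1 controls and 2.19 to 2.91 TPM in CT26 controls. The markers did not all follow that order. The keratin gene Krt18 averaged 272, 12.2 and 0.203 TPM in LL2, CT26NYESO1 and CT26 controls, and Krt7 0.293, 2.50 and 0.977 TPM. The adhesion gene Cdh1 stood at 1.01, 0.948 and 0.965 TPM, and Epcam, another epithelial adhesion gene, at 0.0211, 0.172 and 0 TPM.

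Without OK-432 the tumour types differed in which ligand was most abundant. In CT26 controls Cxcl3 was the first ligand in all 3 libraries, at 19.9, 13.8 and 17.5 TPM. It made up 38.5% ± 3.75 of the summed ligand TPM (SD, n = 3), followed by Cxcl5 at 32.6% ± 3.33 and Cxcl1 at 21.98% ± 1.23. Their shares did not overlap, at 36.1 to 42.8% for Cxcl3, 29.3 to 35.9% for Cxcl5 and 20.6 to 22.8% for Cxcl1. In TPM the ranges of Cxcl3 and Cxcl5 overlapped, as did those of Cxcl5 and Cxcl1. Both Cxcl2 (3.80% ± 1.76) and Ppbp (3.10% ± 0.176) lay far below. In CT26NYESO1 controls Cxcl1 was first in all 3 libraries, at 8.64, 6.15 and 8.67 TPM, and made up 51.2% ± 8.35. Every Cxcl1 value there lay above every value of Cxcl2, the next ligand (22.4% ± 6.52), while Cxcl3 was last at 4.88% ± 1.62. In LL2 controls Cxcl1 was again first in all 3 libraries, at 28.3, 48.8 and 28.6 TPM, with 58.6% ± 9.94 of the sum and no overlap with Cxcl5, the next (14.9% ± 3.25). The ranges of Cxcl5, Cxcl2, Ppbp and Cxcl3 in LL2 controls overlapped from each to the next.

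**Figure D1:**
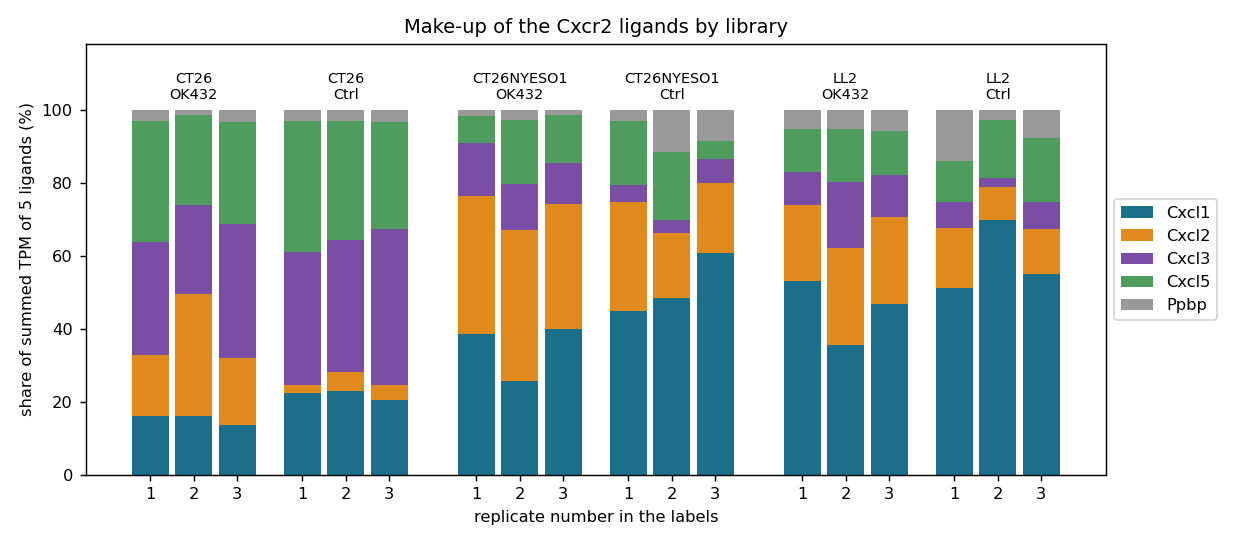
Share of each ligand in the summed TPM of the 5 ligands (vertical axis, %), 1 stacked bar per library, grouped by tumour type with OK432 left of Ctrl. Cxcl3 and Cxcl5 fill most of the CT26 control bars and Cxcl1 most of the LL2 control bars, and the Cxcl2 band is wider with OK-432 in each tumour type.

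These differences between untreated tumours were tested with limma across all 16816 genes, with calls made where the adjusted p (Benjamini-Hochberg) was below 0.05. Log2 changes refer to log2(TPM + 1) and are too small for genes at low levels. Between CT26NYESO1 and CT26 controls 43.9% of all tested genes were called lower and 21.1% higher, so a call there is common. The excess of lower calls depends on how libraries are scaled. With median-of-ratios rescaling 5268 of the 16816 genes were called lower and 5128 higher. Cxcl3 was lower in CT26NYESO1 controls, at 0.757 ± 0.283 TPM against 17.1 ± 3.12 TPM in CT26 controls, a log2 change of -3.36 ± 0.609 (SE; limma adjusted p = 0.000256). Cxcl5 was lower too, at 2.17 ± 1.37 TPM against 14.7 ± 4.27 TPM, a log2 change of -2.38 (limma adjusted p = 0.00104). Both calls held with any 1 library left out. Cxcl1 (-0.29), Cxcl2 (0.77), Ppbp (-0.20) and Cxcr2 (-1.03) were not called between these controls. For Cxcr2 the adjusted p was 0.0625 by limma, and it fell to 0.00564 without CT26NYESO1 OK432 replicate 2, 0.0367 without CT26NYESO1 OK432 replicate 1 and 0.0351 without CT26 OK432 replicate 2, which enter only through the shared spread. Whether Cxcl3 and Cxcl5 differed more than their neighbours Cxcl1 and Cxcl2 was not tested.

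Between LL2 and CT26 controls other members were called, with 29.1% of all tested genes called higher and 39.7% lower. With median-of-ratios rescaling 5771 genes were called higher and 5844 lower. Cxcl2 was higher in LL2 controls, at 7.32 ± 1.58 TPM against 1.59 ± 0.508 TPM in CT26 controls, a log2 change of 1.69 (limma adjusted p = 0.0282). Ppbp was higher by 1.12 (limma adjusted p = 0.0419) and Cxcl3 lower, at 3.10 ± 1.32 TPM against 17.1 ± 3.12 TPM (-2.18, limma adjusted p = 0.00579). The Cxcl2 call ended without CT26 control replicates 1 (1.53, adjusted p = 0.0787 by limma) or 3 (1.71, 0.0557) or LL2 control replicate 1 (1.53, 0.0776). The Ppbp call ended without any 1 of the 3 CT26 controls, LL2 control replicates 1 or 3, CT26 OK432 replicate 3 or CT26NYESO1 control replicate 3, at 0.73 to 1.196 in these fits. Without LL2 control replicate 1, which had the highest Ppbp of the controls, the Ppbp change was 0.73 (adjusted p = 0.187 by limma). Cxcl1, at 35.2 ± 11.7 TPM in LL2 controls and 9.79 ± 2.15 TPM in CT26 controls, missed the threshold (1.72, limma adjusted p = 0.0505), although the groups did not overlap, as those of 31.1% of all tested genes did not in that direction. Its adjusted p was 0.00078 to 0.0454 without any 1 of the CT26NYESO1 OK432 libraries. Against CT26NYESO1 controls, where 38.8% of genes were called higher, LL2 controls had higher Cxcl1 (2.01), Cxcl5 (1.70) and Ppbp (1.32), with limma adjusted p = 0.0266, 0.00984 and 0.0196. The Cxcl1 call ended without LL2 control replicate 2 (1.75) or CT26NYESO1 control replicate 2 (1.86), that of Cxcl5 without CT26NYESO1 control replicate 3 (1.31, 0.0507), and that of Ppbp without LL2 control replicate 1 (0.94) or CT26NYESO1 control replicate 1 (1.14). Cxcl3 (1.18) and Cxcr2 (0.80) were not called there, and were without CT26NYESO1 OK432 replicate 2 (limma adjusted p = 0.00532 and 0.0231).

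**Figure D2:**
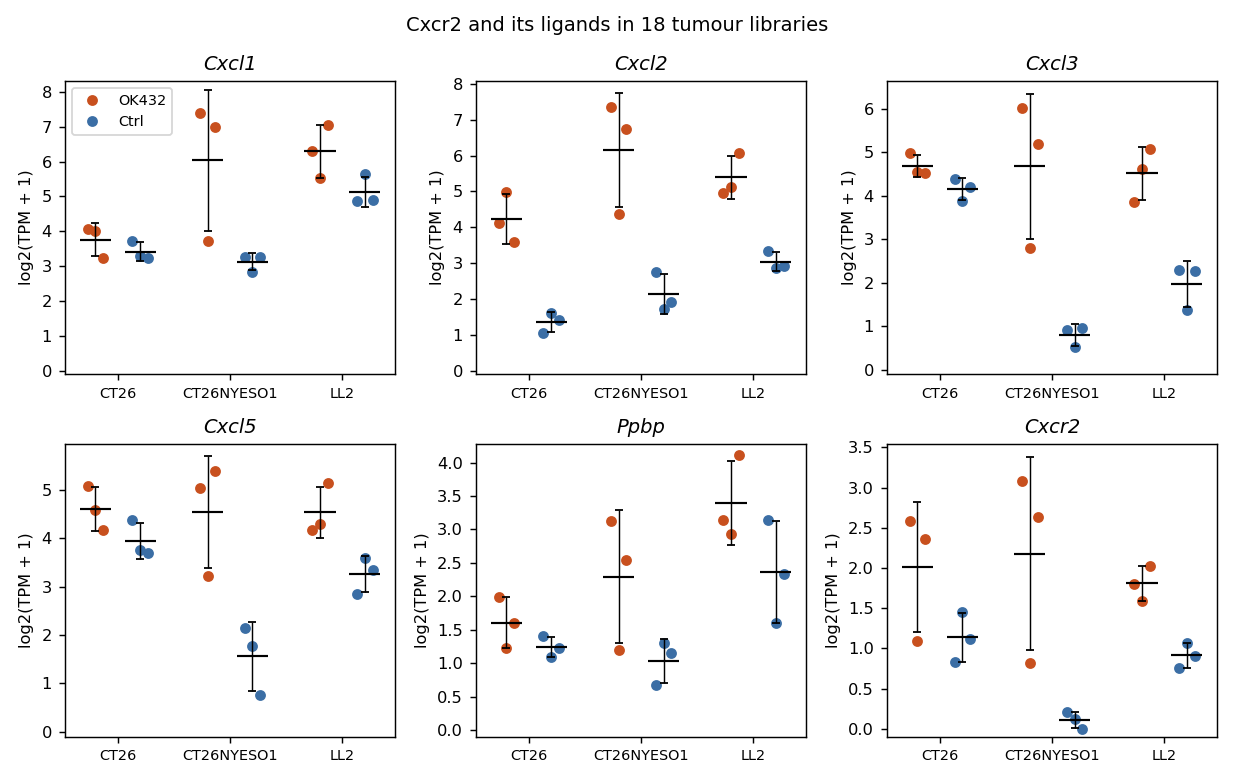
Level of each gene as log2(TPM + 1) (vertical axis) in every library, by tumour type, OK432 in orange left of Ctrl in blue; lines and bars are the mean and SD of 3 libraries. Cxcl2 with OK-432 lies above its controls in each tumour type, and 1 CT26NYESO1 OK432 library lies near the controls for Cxcl1, Ppbp and Cxcr2.

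With OK-432 the summed ligand level stood at 98.3, 91.9 and 60.5 TPM in CT26 OK432 libraries, against 54.5, 38.1 and 40.9 TPM in CT26 controls. In CT26NYESO1 it was 435, 47.2 and 313 TPM with OK432, against 19.3, 12.7 and 14.3 TPM in controls. LL2 tumours had 147, 128 and 281 TPM with OK432, against 55.3, 69.8 and 52.1 TPM in controls. The OK432 and control ranges did not overlap in any tumour type, and the ratio of the group means was 1.88 in CT26, 17.2 in CT26NYESO1 (24.2 without OK432 replicate 2) and 3.13 in LL2. These are bulk libraries, in which more cells of a type and more RNA per cell cannot be told apart.

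Cxcl2, a ligand made rapidly by activated myeloid cells, was higher with OK-432 in every library of each tumour type. It stood at 16.3, 30.6 and 11.1 TPM in CT26 OK432 libraries, against 1.06, 2.07 and 1.65 TPM in CT26 controls. In CT26NYESO1 it was at 164, 19.5 and 107 TPM with OK432, against 5.77, 2.29 and 2.76 TPM in controls. In LL2 it was at 30.2, 33.9 and 66.4 TPM with OK432, against 9.14, 6.30 and 6.51 TPM in controls. Every OK432 library exceeded every control of its tumour type, which 0.184% of all tested genes did in all 3 tumour types. Averaged over the 3 tumour types with equal weight, Cxcl2 rose by 3.08 ± 0.361 (SE, log2 scale; limma adjusted p = 0.00196), in a comparison where 0.167% of genes were called higher. That call held with any 1 library left out, at 2.88 to 3.38. Within tumour types the change was 4.03 ± 0.626 in CT26NYESO1 (limma adjusted p = 0.0213), and the differences of 2.88 in CT26 and 2.35 in LL2 were not called (0.538 and 0.629). Without CT26NYESO1 OK432 replicate 2 the CT26NYESO1 change was 4.93 (limma adjusted p = 3.77e-05). The CT26 difference, which that library touches only through the shared spread, was then called at the same size (limma adjusted p = 0.0115).

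Cxcl3, the ligand that shares transcript sequence with Cxcl2, was at 64.0, 5.97 and 35.5 TPM in CT26NYESO1 OK432 libraries, against 0.897, 0.431 and 0.944 TPM in controls. LL2 tumours had Cxcl3 at 13.5, 23.4 and 32.6 TPM with OK432, against 3.90, 1.58 and 3.83 TPM in controls. In CT26, where it was already high, it was at 30.6, 22.2 and 22.1 TPM with OK432, against 19.9, 13.8 and 17.5 TPM in controls. None of these ranges overlapped, though the CT26 groups lay close together. Cxcl3 rose by 3.87 ± 0.609 in CT26NYESO1 (SE; limma adjusted p = 0.0217) and by 2.31 on average (0.0146). Differences of 2.53 in LL2 and 0.52 in CT26 were not called (limma adjusted p = 0.504 and 1). The average call ended without CT26NYESO1 control replicate 2 (2.26, limma adjusted p = 0.0509), and the LL2 difference was called without CT26NYESO1 OK432 replicate 2 (0.00794), when the CT26NYESO1 change was 4.81 (6.84e-06).

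Cxcl1, the most abundant ligand of untreated LL2 and CT26NYESO1 tumours, spread widely with OK-432. It was at 168, 12.1 and 125 TPM in CT26NYESO1 OK432 libraries, against 8.64, 6.15 and 8.67 TPM in controls. In LL2 Cxcl1 was at 77.9, 45.5 and 131 TPM with OK432, against 28.3, 48.8 and 28.6 TPM in LL2 controls. In CT26 it was at 15.9, 14.9 and 8.31 TPM with OK432, against 12.3, 8.70 and 8.41 TPM in CT26 controls. The groups overlapped in LL2, where OK432 replicate 2 lay below control replicate 2, and in CT26. No difference was called: it was 2.90 ± 0.729 in CT26NYESO1 (SE; limma adjusted p = 0.0815), 1.16 in LL2 and 0.35 in CT26 (adjusted p = 1 each). Without CT26NYESO1 OK432 replicate 2 the difference there was 4.06 (limma adjusted p = 0.00012) and the average 1.86 (0.000589, against 1.47 and 0.302 with all libraries).

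Cxcl5, a ligand of epithelial and stromal origin in many tissues, rose in CT26NYESO1, to 31.6, 8.26 and 40.5 TPM with OK432, against 3.41, 2.40 and 0.708 TPM in controls (2.98 ± 0.514, SE; limma adjusted p = 0.0277). LL2 tumours had Cxcl5 at 16.99, 18.6 and 34.0 TPM with OK432, against 6.20, 11.1 and 9.10 TPM in controls, without overlap, a difference of 1.27 that was not called (0.891). In CT26 it was at 32.6, 22.8 and 16.96 TPM with OK432, against 19.6, 12.4 and 11.96 TPM in controls, with overlap and a difference of 0.67 (limma adjusted p = 1). The average of 1.64 missed the threshold (limma adjusted p = 0.0514), and passed it without CT26NYESO1 OK432 replicate 2 (0.000687), when the CT26NYESO1 change was 3.64 (0.000345). Ppbp ranged from 1.29 to 16.3 TPM with OK432 and from 0.591 to 7.82 TPM in controls, and its groups overlapped in each tumour type. Its differences were 1.25 in CT26NYESO1, 1.03 in LL2, 0.36 in CT26 and 0.88 on average (limma adjusted p = 0.302), none called. Without CT26NYESO1 OK432 replicate 2 limma called Ppbp in CT26NYESO1 (1.80, adjusted p = 0.0235) and on average (1.06, 0.033).

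Set against controls of their tumour type, the OK432 libraries lay above without overlap for 5 of the 6 genes in CT26NYESO1 (all but Ppbp), where 7.14% of all tested genes did. In LL2 they did so for 4 (Cxcl2, Cxcl3, Cxcl5 and Cxcr2) against 4.7% of all genes, and in CT26 for 2 (Cxcl2 and Cxcl3) against 4.79%. By the test, 3 of the 6 genes were called higher in CT26NYESO1 (Cxcl2, Cxcl3 and Cxcl5), where 0.41% of all tested genes were. Their median change was 2.94, against -0.022 over all tested genes. Those calls changed when single libraries were left out, as did the number of all genes called higher (69 of 16816 with all libraries). The count was 6 without OK432 replicate 2, where 394 of all genes were called higher. It was 1 without control replicate 1 (Cxcl2), where 10 of all genes were. Without control replicates 2 or 3 or OK432 replicate 3 it was 0, where 3, 16 and 3 of all genes were. When the CT26NYESO1 libraries were fitted alone it was also 0 (limma adjusted p = 0.372 for Cxcl2, Cxcl3 and Cxcl5), as it was over all genes. In LL2 limma called 0 of the 6, where 0.0119% of all genes were called higher, and 4 had an unadjusted p under 0.05, as did 5.26% of all genes. Their median change was 1.22, against -0.0099 over all tested genes. In CT26 it called 0 of the 6 and 0% of all genes, and 1 of the 6, Cxcl2, had an unadjusted p under 0.05 (4.1% of all genes), with a median of 0.60 against 0.00037 over all tested genes. The OK-432 effects of CT26NYESO1 and CT26 differed by 3.35 for Cxcl3, 2.56 for Cxcl1 and 2.31 for Cxcl5, and limma called none of the 6 differences (adjusted p from 0.439 to 0.741), or of any gene (0%), with 3 of the 6 at an unadjusted p under 0.05 against 8.84% of all genes. Without CT26NYESO1 OK432 replicate 2 it called these 3, at 4.28, 3.72 and 2.97 (adjusted p = 0.00186, 0.0146 and 0.0339). In that fit 89 of the 16816 genes were called higher and 10 lower. Between LL2 and CT26 effects limma called 0 of the 6 and 0.00595% of all genes, with 1 of the 6 (Cxcl3) at an unadjusted p under 0.05 against 4.89% of all genes. Between LL2 and CT26NYESO1 effects it also called 0 of the 6 and 0.00595% of all genes, with 1 of the 6 (Cxcl5) at an unadjusted p under 0.05 against 8.81% of all genes. In that last comparison Cxcl1 was called without CT26NYESO1 OK432 replicate 2 (-2.90, limma adjusted p = 0.0451), where 41 of all genes were called lower and 16 higher.

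**Figure D3:**
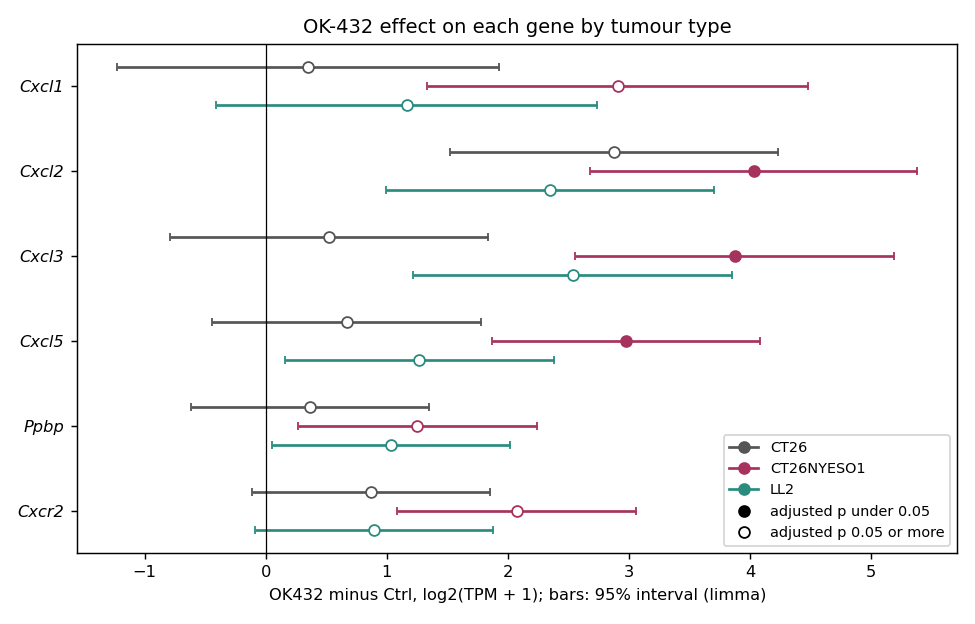
OK432 minus Ctrl on the log2(TPM + 1) scale (horizontal axis) for each gene and tumour type, with 95% intervals from limma; filled points have an adjusted p under 0.05. The filled points are Cxcl2, Cxcl3 and Cxcl5 in CT26NYESO1, and the Cxcl2 intervals lie above 0 in all 3 tumour types.

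OK-432 also went with another make-up of the ligands. Cxcl2 took 22.8% ± 9.20 of the summed ligand TPM in CT26 OK432 libraries, against 3.80% ± 1.76 in CT26 controls (SD, n = 3 each). In CT26NYESO1 it took 37.7% ± 3.63 with OK432, against 22.4% ± 6.52 in controls, and in LL2 23.6% ± 2.92 with OK432, against 12.7% ± 3.75 in controls. These shares did not overlap within any tumour type. The Cxcl1 share was lower without overlap in CT26 (15.4% ± 1.43 with OK432, 21.98% ± 1.23 in controls) and in CT26NYESO1 (34.8% ± 7.90 with OK432, 51.2% ± 8.35 in controls), and overlapped in LL2 (45.2% ± 8.94 with OK432, 58.6% ± 9.94 in controls). The Cxcl3 share was higher without overlap in CT26NYESO1, at 12.9% ± 1.70 with OK432 and 4.88% ± 1.62 in controls. In LL2 it was also higher without overlap, at 13.04% ± 4.72 with OK432 and 5.55% ± 2.85 in controls, and it overlapped in CT26. The Ppbp share was lower without overlap in CT26NYESO1, at 2.02% ± 0.634 with OK432 and 7.67% ± 4.26 in controls, though its level was not called. Shares of 1 library add up to a fixed total, so they do not vary independently.

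Ratios to Cxcl1 within each library gave a test of this make-up. The difference in log2(TPM + 1) between Cxcl2 and Cxcl1 was 0.47 ± 0.48 in CT26 OK432 libraries and -2.06 ± 0.55 in CT26 controls. In CT26NYESO1 it was 0.13 ± 0.46 with OK432 and -0.998 ± 0.44 in controls, and in LL2 -0.91 ± 0.47 with OK432 and -2.09 ± 0.63 in controls (SD, n = 3 each). Cxcl2 thus gained on Cxcl1 by 1.61 on average, in a two-sided exact permutation test over 8000 assignments within tumour types (p = 0.00025, the smallest it can give, adjusted p = 0.00075 over 3 ratios), with no overlap in any tumour type. Cxcl3 gained on Cxcl1 by 0.84 (exact permutation p = 0.003, adjusted p = 0.0045), at 0.97 in CT26NYESO1, 1.37 in LL2 and 0.17 in CT26, values whose differences were not tested. This call ended with a pseudocount of 5 (0.26, exact permutation adjusted p = 0.42). Cxcl5 differed against Cxcl1 by 0.17 (exact permutation p = 0.5), which was not called. Within 1 tumour type 3 libraries against 3 cannot give a p below 0.1.

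**Figure D4:**
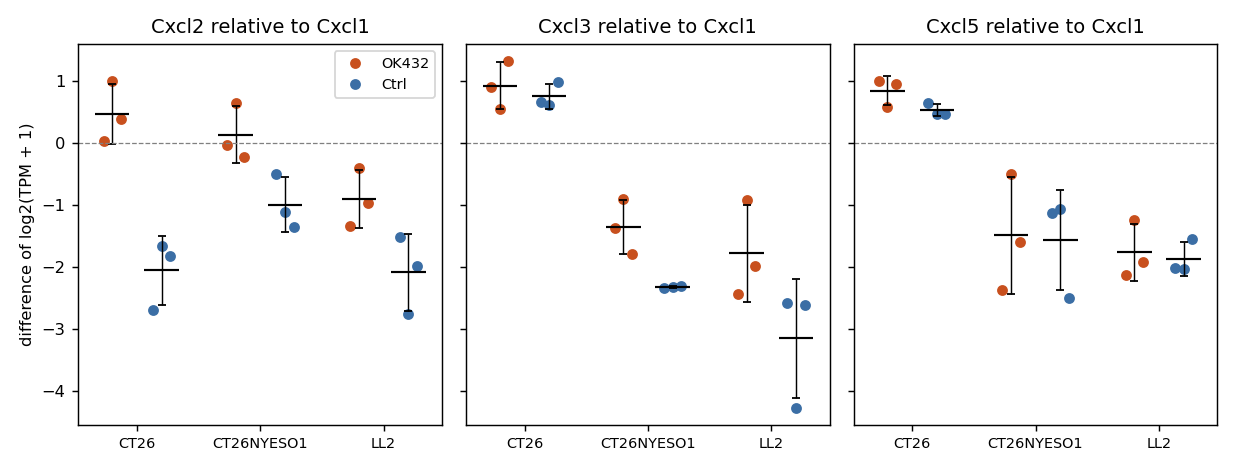
Level of Cxcl2, Cxcl3 and Cxcl5 relative to Cxcl1, as the difference of log2(TPM + 1) (vertical axis) in every library, OK432 left of Ctrl, with the mean and SD of 3 libraries. For Cxcl2 the OK432 points lie above the control points in each tumour type, and for Cxcl5 the groups lie close together.

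With OK-432 the TPM range of the leading ligand overlapped that of the next in each tumour type. In CT26 OK432 libraries Cxcl3 (25.0 ± 4.87 TPM), Cxcl5 (24.1 ± 7.90 TPM) and Cxcl2 (19.3 ± 10.1 TPM) were each first in 1 library, and their ranges overlapped. In CT26NYESO1 Cxcl1 (101.8 ± 80.7 TPM) was first in 2 OK432 libraries and Cxcl2 (96.6 ± 72.5 TPM) in 1, OK432 replicate 2. In LL2 Cxcl1 (84.96 ± 43.4 TPM) stayed first in all 3 OK432 libraries, and its TPM range overlapped with that of Cxcl2 (43.5 ± 19.9 TPM). The shares of these ligands within LL2 OK432 libraries did not overlap, at 35.5 to 53.2% for Cxcl1 and 20.6 to 26.5% for Cxcl2. Ppbp was last with OK-432 in each tumour type.

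The receptor gene was low throughout. Cxcr2 was at 4.98, 1.12 and 4.13 TPM in CT26 OK432 libraries, against 0.785, 1.74 and 1.17 TPM in CT26 controls, with overlap. In CT26NYESO1 it was at 7.44, 0.766 and 5.23 TPM with OK432, while controls stood at 0.153 and 0.0847 TPM and replicate 3 was listed at 0. LL2 tumours had Cxcr2 at 2.50, 2.02 and 3.05 TPM with OK432, against 0.689, 1.10 and 0.874 TPM in controls, without overlap. The differences were 2.07 ± 0.460 in CT26NYESO1 (SE; limma adjusted p = 0.0542), 0.89 in LL2 (0.957) and 0.87 in CT26 (1), and none was called. The average of 1.28 was not called either (limma adjusted p = 0.103). Without CT26NYESO1 OK432 replicate 2 limma called both the CT26NYESO1 change (2.75, adjusted p = 0.000206) and the average (1.51, 0.000194). Without CT26 OK432 replicate 2, the CT26 library with the lowest Cxcr2 among those given OK432, it called the CT26NYESO1 change (2.07, 0.0471) and the average (1.43, 0.0254). With a pseudocount of 0.1 in place of 1 the CT26NYESO1 change was 4.29 (limma adjusted p = 0.00984).

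Neutrophil markers above the filter moved with the receptor, though not each of them in every tumour type. Of 18 markers, 11 were tested. Retnlg, Mmp8 and Stfa2l1 stayed below 1 TPM in every control library and passed the filter only through OK432 libraries. Counts of called markers therefore follow in part from the filter. Limma called 7 higher in CT26NYESO1 (0.41% of all genes) and 7 on average (0.167%). It called 0 in LL2 (0.0119%) and 0 in CT26 (0%), where 7 and 6 of the 11 had an unadjusted p under 0.05, as did 5.26% and 4.1% of all genes. Without CT26NYESO1 OK432 replicate 2 it called 9 in CT26NYESO1, 9 on average, 4 in LL2 and 3 in CT26, beside 2.34%, 0.755%, 0.0714% and 0.0476% of all genes. In CT26NYESO1 the markers S100a9 and S100a8 rose by 6.04 and 4.62, and the neutrophil stefin gene Stfa2l1 by 3.08 (limma adjusted p = 0.00434, 0.00954 and 0.0108). Without that library these 3 rose by 7.08, 5.58 and 3.82. In CT26NYESO1 the 18 markers summed to 158 to 852 TPM with OK432 and 55.8 to 77.9 TPM in controls. In CT26 they summed to 150 to 235 TPM with OK432 and 58.1 to 78.4 TPM in controls, and in LL2 to 171 to 290.0 TPM with OK432 and 45.5 to 63.1 TPM in controls. Of the tested markers, Fpr2 averaged 23.9 TPM with OK432 and 23.4 TPM in controls of CT26. It averaged 40.9 and 28.2 TPM in CT26NYESO1, and 7.81 and 5.10 TPM in LL2. Cd177, below the filter, was lower with OK432 in CT26 (0.257 against 0.574 TPM) and LL2 (0.355 against 0.671 TPM). In CT26NYESO1 it was higher (0.328 against 0.218 TPM). Elane, a protease of immature neutrophils, was listed at 0 in every library. Relative to Csf3r, another neutrophil receptor gene that other myeloid cells also express, Cxcr2 stood at 0.225, 0.0450 and 0.206 in CT26NYESO1 OK432 libraries and at 0 to 0.0129 in their controls. In CT26 this ratio was 0.0757 to 0.245 with OK432 and 0.0568 to 0.135 in controls, and in LL2 0.186 to 0.286 with OK432 and 0.130 to 0.155 in controls. The part of the neutrophil markers in the ligand and receptor values was not tested.

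**Figure D5:**
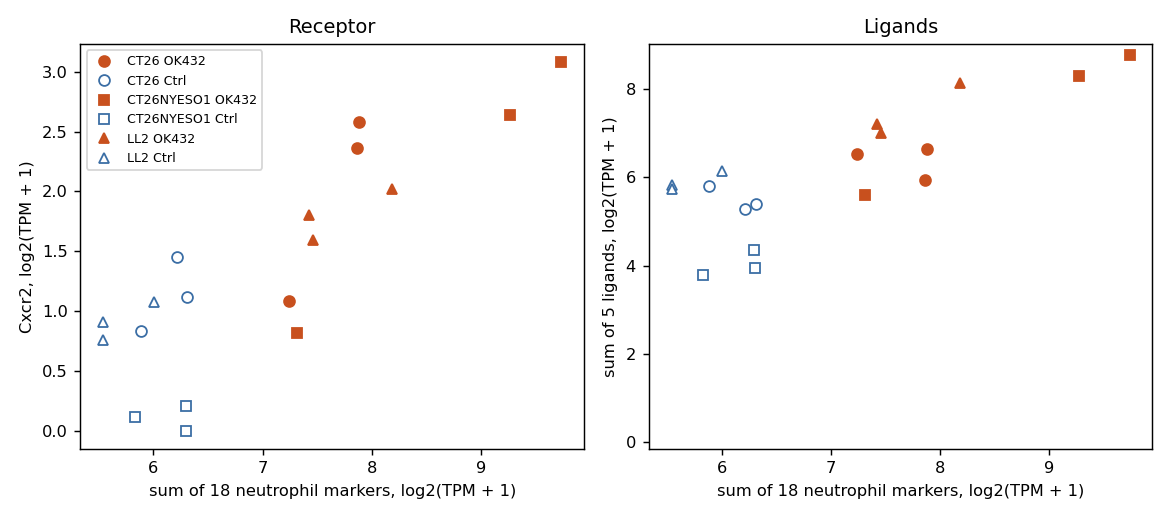
Cxcr2 (left) and the sum of its 5 ligands (right), each as log2(TPM + 1), against the summed TPM of 18 neutrophil markers as log2(TPM + 1) (horizontal axis), 1 point per library. Filled OK432 points lie to the right of the open control points, and CT26NYESO1 control points are lowest for both Cxcr2 and the ligands.

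Of the other 26 genes whose promoters hold the GGGAATTTCC decamer of Cxcl1, Cxcl2 and Cxcl3, 11 were tested. Limma called 0 of these 11 with OK-432 in any tumour type or on average, with a median change of -0.045 in CT26NYESO1. Of all genes 0.41% were called higher in CT26NYESO1, 0.0119% in LL2, 0% in CT26 and 0.167% on average. An unadjusted p under 0.05 was found for 2 of them in CT26NYESO1, 1 in LL2, 0 in CT26 and 1 on average, beside 16.2%, 5.26%, 4.1% and 10.3% of all genes. The 2 were Map3k7, a kinase gene (-0.19), and Nfkbia, an NF-kappaB inhibitor gene that is itself an NF-kappaB target (0.90, limma adjusted p = 0.0884). Limma called 1 of the 11 in CT26NYESO1 and on average without CT26NYESO1 OK432 replicate 2, Nfkbia (1.25 and 0.62, adjusted p = 0.000812 and 0.00205). In these fits 2.34% and 0.755% of all genes were called higher.

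Genes with the most similar course over the 18 libraries were sought after removing the mean of each tumour type, among 11558 tested genes averaging at least 5 TPM. All libraries share the OK-432 contrast, so these values describe and carry no p. Cxcr2 was nearest to the neutrophil genes S100a9 (Pearson r = 0.927), Lcn2 (0.925) and S100a8 (0.925). Cxcl1 was nearest to Nfkbia (Pearson r = 0.965), the transcriptional repressor gene Mxd1 (0.955) and Nfkbiz, an inducible NF-kappaB cofactor (0.953). Cxcl2 was nearest to G0s2, an inhibitor of triglyceride lipolysis (Pearson r = 0.982), Hcar2, a receptor for nicotinic acid and butyrate (0.972), and Clec4e, a C-type lectin of myeloid cells (0.967). Cxcl3 was nearest to Arg2 (Pearson r = 0.973), the mitochondrial arginase, followed by Slpi, a protease inhibitor, and Dusp16, a MAP kinase phosphatase. Cxcl5 was nearest to Ccrl2 (Pearson r = 0.928), an atypical chemokine receptor, then Mxd1 and Cxcl1. Ppbp was nearest to Gclm (Pearson r = 0.913), a subunit of the glutathione-making enzyme, then Pdpn and Pf4, its neighbour in the cluster (0.898). Among the 6 genes the closest pair was Cxcl1 and Cxcl5 (Pearson r = 0.918) and the least close Cxcl5 and Ppbp (0.739).

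Few other genes of the axis were called, as was so for all genes. Over all tested genes 0.41% were called higher in CT26NYESO1, 0.0119% in LL2, 0% in CT26 and 0.167% on average. In CT26NYESO1 0.256% were called lower. Finding 0 calls in lists as short as those below is therefore common and says little about them. Of 9 further genes of the cluster, receptors and chemokines, 5 were tested and 0 were called by limma with OK-432 in any tumour type or on average. Cxcr4 had an unadjusted p under 0.05 in CT26NYESO1 and on average, 1 gene of the 5 in each, beside 16.2% and 10.3% of all genes. Pf4, platelet factor 4, which macrophages also express, was at 140.1 ± 48.1 TPM in CT26NYESO1 OK432 libraries and 89.1 ± 13.4 TPM in their controls (0.60, limma adjusted p = 0.416). Cxcr4, the receptor that holds neutrophils in marrow, differed by 1.04 in CT26NYESO1 (limma adjusted p = 0.0508), -0.082 in CT26 and 0.20 in LL2. It was called in CT26NYESO1 without OK432 replicate 2 (1.09, limma adjusted p = 0.0334), where 2.34% of all genes were called higher. Cxcl12, the ligand of Cxcr4, Cxcl16 and the scavenger Ackr1 differed by 0.47, 0.069 and 0.34 in CT26NYESO1, none called. Cxcr1, Ackr2, Cxcl15 and Cxcl17 stayed below the filter. Of 13 genes of signalling and desensitisation downstream of the receptor, Gnai2 among them, 0 were called by limma in any tumour type or on average. Their median was 0.013 in CT26NYESO1, where 3 of the 13 had an unadjusted p under 0.05, as did 16.2% of all genes. Platelet markers gave 0 calls by limma among 5 tested of 11. In CT26, CT26NYESO1 and LL2 1 of the 5 had an unadjusted p under 0.05, beside 4.1%, 16.2% and 5.26% of all genes. The 11 markers summed to 11.6 to 13.8 TPM in CT26NYESO1 OK432 libraries and 10.1 to 12.3 TPM in their controls. The part of platelets in the Ppbp values was not tested.

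Of 10 genes of cytokines, receptor signalling and NF-kappaB factors known to induce these ligands, 8 were tested and 2 were called higher in CT26NYESO1 and on average, where 0.41% and 0.167% of all genes were. Il1b was at 226, 56.4 and 191 TPM in CT26NYESO1 OK432 libraries and 13.6, 16.1 and 23.2 TPM in their controls, a rise of 2.90 (limma adjusted p = 0.0148). Il1a rose by 1.72 there (0.0246), and on average Il1a rose by 1.24 and Il1b by 1.57 (limma adjusted p = 0.0038 and 0.0191). Il1a passed the filter only because OK432 libraries were counted. When CT26NYESO1 OK432 replicate 2 was left out limma called 3 in CT26NYESO1 and 3 on average, beside 2.34% and 0.755% of all genes called higher. In CT26NYESO1 Il1b was then at 3.52, Il1a at 2.19 and Nfkbiz at 0.86 (limma adjusted p = 1.45e-05, 5.08e-05 and 0.000268). Tnf differed by 0.0094, Tlr2 by 0.16, Nfkb1 by 0.067, Rela by 0.15, Nfkbiz by 0.63 and Myd88 by -0.24 in CT26NYESO1, none called, and Il17a and Il17f stayed below the filter. Of 7 genes that limit the ligands, Zc3h12a, an RNase that degrades inflammatory transcripts, was called in CT26NYESO1 (0.75, limma adjusted p = 0.0217), where 6 of the 7 had an unadjusted p under 0.05, as did 16.2% of all genes. With that library left out limma called 4 of the 7 there and on average, beside 2.34% and 0.755% of all genes called higher. Added in CT26NYESO1 were Nfkbia (1.25), the interleukin-1 receptor antagonist gene Il1rn (1.65) and the NF-kappaB inhibitor gene Tnfaip3 (0.87). Of the tested markers of macrophages (8), monocytes (6), fibroblasts (7), endothelium (7), epithelium (4), mast cells (6), T cells (5) and skeletal muscle (5), 0 were called by limma in any tumour type or on average. Of all genes 0.41% were called higher in CT26NYESO1, 0.0119% in LL2, 0% in CT26 and 0.167% on average. At an unadjusted p under 0.05 there were at most 3 of a list, the monocyte markers in LL2 (3 of 6, beside 5.26% of all genes). In CT26 2 of the 6 monocyte markers had such a p, beside 4.1% of all genes, and in CT26NYESO1 0 did, beside 16.2%. Leaving out the same library, limma called 3 of the 8 macrophage markers lower in CT26NYESO1, the complement genes C1qa (-0.65) and C1qc (-0.65) and the receptor gene Csf1r (-0.47), and 1 fibroblast marker higher, Dcn (0.91), where 1.66% and 2.34% of all genes were called lower and higher. In CT26NYESO1 the first tested gene of these lists differed by -0.18 for the macrophage gene Adgre1, -0.36 for the monocyte gene Ly6c2, 0.26 for the collagen gene Col1a1 and 0.27 for the endothelial gene Pecam1. The monocyte markers had a median difference of -0.40 in CT26, -0.0097 in CT26NYESO1 and -0.50 in LL2. Ly6c2 was at 25.2, 18.96 and 16.8 TPM in CT26 OK432 libraries, against 41.95, 53.8 and 47.8 TPM in CT26 controls (-1.21, limma adjusted p = 0.957). In LL2 it was at 5.99, 11.8 and 7.97 TPM with OK432, against 14.4, 57.96 and 30.2 TPM in controls (-1.71, limma adjusted p = 0.485). The average Ly6c2 difference of -1.10 was not called (limma adjusted p = 0.103). The monocyte markers did not all follow Ly6c2. Ccr2 averaged 81.3 TPM with OK432 and 83.1 TPM in controls of CT26, and 34.4 and 47.7 TPM in LL2. F13a1 averaged 13.9 and 22.4 TPM in CT26, and 33.5 and 26.0 TPM in LL2. Macrophage markers summed to 1752 to 2893 TPM in CT26NYESO1 OK432 libraries and 2403 to 3245 TPM in their controls.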

How the data were processed

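The authors deposited 1 table of TPM values for 55291 genes and 18 libraries, each library summing to 1000000. Per the submitters' processing notes the tools were Trim Galore 0.6.5, STAR 2.7.3a and StringTie 2.1.2 on the build mm10. Per the labels' protocols, TRIzol RNA went into stranded mRNA libraries. No source used here gives the annotation or the strand setting. Without counts there are no counting intervals, and since TPM is a share of a library, a few abundant genes can move other values. A value of 0 may be a failed estimate.

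Groups came from the sample titles. Genes with at least 1 TPM in at least 3 libraries were tested on log2(TPM + 1) with limma 3.58.1 in R 4.3.3 (trended, robust empirical Bayes), in 1 fit of 6 group means with 12 residual degrees of freedom. In all 10 contrasts were taken and p-values were Benjamini-Hochberg adjusted over 16816 genes. Ratios of ligands were tested by exact permutation within tumour types. Both procedures were tested on simulated data. Genes named are the 6 members, the 3 most similar genes for each, and members of fixed lists: all chemokine relatives and inducers, and of each other list up to 3 called genes, or its first gene where none was called (not all are printed). These members and lists were chosen with earlier results of these data known. Genes named for the promoter motif, for epithelial or immature neutrophil identity, for a call only without CT26NYESO1 OK432 replicate 2, or as Csf3r, and Ly6c2 outside CT26NYESO1, were chosen after their values were seen. So were Fpr2, Cd177, Retnlg, Mmp8, Ccr2 and F13a1.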

Additional observations from a re-analysis of the deposited data

How the results depend on the processing

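The number of the 6 genes called moved by more than 1.5 times in these cases. With a pseudocount of 0.1 it was 4 in place of 2 for the average OK-432 effect, where 34 of all 16816 tested genes were called higher and 3 lower. For LL2 against CT26NYESO1 controls it was 5 in place of 3, where 6515 of all genes were called higher and 4639 lower. With a pseudocount of 5 it was 1 for the average (13 of all genes higher, 1 lower). It was 1 in place of 3 for LL2 against CT26 controls (4874 of all genes higher, 6648 lower). Fitting the compared groups alone called 0 in place of 3 in CT26NYESO1, where 0 of all genes were called. For CT26NYESO1 against CT26 controls it called 4 in place of 2, beside 3375 of all genes higher and 7038 lower. It called 5 for LL2 against CT26 controls (4815 of all genes higher, 6550 lower). For LL2 against CT26NYESO1 controls it called 6 (6423 of all genes higher, 4528 lower). Leaving out each library in turn gave 0 to 1 in CT26, 0 to 6 in CT26NYESO1, 0 to 1 in LL2, and 1 to 6 for the average. Over all genes 0 to 8, 3 to 394, 0 to 12 and 19 to 127 were called higher in these fits. For differences between effects it gave 0 to 3 (CT26NYESO1 minus CT26), 0 (LL2 minus CT26) and 0 to 1 (LL2 minus CT26NYESO1). For controls it gave 2 to 3 (CT26NYESO1 minus CT26), 1 to 4 (LL2 minus CT26) and 2 to 5 (LL2 minus CT26NYESO1). Over all genes 3274 to 3572, 4586 to 4934 and 6110 to 6562 were called higher in these control comparisons, and 6871 to 7422, 6275 to 6711 and 4204 to 4668 lower. The counts of the 6 genes were within 1.5 times the main ones under no filter, a filter of 5 TPM (where Cxcr2 was no longer tested), median-of-ratios rescaling, quantile normalization and plain empirical Bayes.

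The ratio of Cxcl2 to Cxcl1 kept its call in every setting run, at 1.02 to 1.94. That of Cxcl3 lost it with a pseudocount of 5 (0.26), and that of Cxcl5, never called, turned to -0.11 there. Other sign changes were of uncalled differences between effects near 0. For LL2 minus CT26, with a pseudocount of 5, Cxcl2 stood at 0.10 and Cxcr2 at -0.053, and without 1 library Cxcr2 lay between -0.44 and 0.31. For LL2 minus CT26NYESO1 Ppbp stood at 0.046 with a pseudocount of 5 and between -0.77 and 0.20 without 1 library. The cause was not tested.

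Libraries with the same replicate number did not deviate together: 4 of 45 pairs had a correlation over 0.1, with a median of -0.015. With the replicate number as a block no count moved by more than 1.5 times (3 called in CT26NYESO1, 2 on average), and Cxcl1 passed the threshold for LL2 against CT26 controls (1.72, limma adjusted p = 0.0496).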
